A study of Drosophila melanogaster with 2 samples.

Results

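The 9 genes described here carry the core of the Drosophila c-Jun N-terminal kinase (JNK) pathway and the AP-1 transcription factor at its end: egr, msn, slpr, hep, bsk, Gadd45, kay, Jra and puc. They were chosen by name, and the binding sites of REPTOR at them were read from peak lists of a chromatin immunoprecipitation experiment (ChIP-seq). All 9 genes had at least 1 peak summit inside the gene or within 5 kb of it, against 55.3% of all protein-coding genes. Together they had 31 distinct summits of the 5321 in the authors' optimal list. Within 2 kb, hep and Gadd45 had none, a distance at which the share of all genes was not counted. A summit lay within 1000 bp of an own transcription start site (TSS) at msn, kay, Jra and puc, 4 of the 9 (44.4%), against 30.3% of all protein-coding genes. The one at msn stood 4 bp from the TSS of RpL8. For 17 of the 31 summits the nearest protein-coding TSS was a neighbour's, and egr, slpr, hep, bsk and Gadd45 had only such summits. The series held a single group with 2 biological replicates, numbered 1 and 3 in the labels: whole embryos 0 to 24 h old, males and females pooled, from a transgenic line that stably expresses CG13624 (REPTOR) fused at its C terminus to GFP, precipitated with an antibody against GFP. There was no untagged or mutant group among the peak lists, and the control experiment that the labels name was not analysed here. Since whole embryos were pooled, no summit was assigned to a tissue, and the peaks are those of the tagged protein made from the transgene.

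JNK signalling is a kinase relay. The tumour necrosis factor ligand Eiger or cues inside the cell engage a chain in which each kinase phosphorylates the next, ending with Basket, the JNK itself, which acts on the AP-1 factors Fos (kay) and Jun (Jra). In the fly embryo the pathway is best known for dorsal closure, the joining of the lateral epidermal sheets over the back, and elsewhere for wound repair and stress-induced cell death. The phosphatase gene puc is both a target of the pathway and its brake, since its product inactivates Basket. REPTOR is a basic leucine zipper factor like Fos and Jun, and is known as a transcriptional effector held back by the TORC1 growth kinase.

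The sequences under the puc and kay summits are shown because both genes had a summit at an own start and matches to the sites of AP-1 or of the GAGA factor. Each was read from the RefSeq Release 6 (dm6) reference, on the strand of the gene (plus for both), over the summit and 50 bp on each side of it. The kay start is the exception, shown only over the 48 bp upstream of the TSS. Capitals mark an AP-1 match (TGANTCA) or a GAGA match (GAGAGAG, or CTCTCTC where the match was on the other strand).
puc, chr3R:8106338-8106438, at the start of puc-RB: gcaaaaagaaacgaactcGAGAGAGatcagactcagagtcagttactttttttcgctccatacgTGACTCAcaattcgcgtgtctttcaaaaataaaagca
puc, chr3R:8119948-8120048, in the distal intron: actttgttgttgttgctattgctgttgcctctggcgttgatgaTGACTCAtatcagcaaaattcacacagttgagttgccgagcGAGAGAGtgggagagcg
puc, chr3R:8114112-8114212, the strongest summit of the gene: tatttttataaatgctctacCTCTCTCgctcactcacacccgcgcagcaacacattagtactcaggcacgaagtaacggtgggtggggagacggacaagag
kay, chr3R:29772844-29772891, upstream of the start of kay-RA and kay-RG: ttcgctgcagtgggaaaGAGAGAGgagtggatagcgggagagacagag
kay, chr3R:29773888-29773988, the strongest summit of the gene, with no match: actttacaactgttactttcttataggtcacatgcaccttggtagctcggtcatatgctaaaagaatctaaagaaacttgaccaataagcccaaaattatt

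The share of the 9 genes with a summit at their own promoter, 44.4%, stood beside 30.3% of the 13945 protein-coding genes (4226). A gene with several TSSs has more chances to count. Of the 17 TSSs of the 9 genes, 6 had a summit within 1000 bp, a share not counted over all genes. For a summit inside or within 5 kb, the share was all 9 genes against 55.3% of all (7716). That window grows with gene length, and msn, kay and puc were long (4.50%, 5.11% and 8.76% of genes were longer). Per 10 kb of gene and flanks, the share of genes with fewer summits ran from 48.6% at hep to 98.3% at Jra. It was also near the middle at slpr (50.7%) and bsk (57.2%). The 31 summits had a median pooled signal of 143.5 (quartiles 113.7 and 188.2, lowest 80.54, highest 288.2), against a median of 124.5 over all 5321 (quartiles 95.79 and 182.7, lowest 77.94, highest 2773). This signal is the value that the authors' peak caller gave each call, and a rank of 1 is the highest signal of a list. The 31 summits ranked from 541 to 5088. Of the 31, 9 (29.0%) were in the strongest 25% of the list and 18 (58.1%) in its upper 50%. Of the 31, 16 were inside the genes, 8 upstream and 7 downstream.

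**Figure D1:**
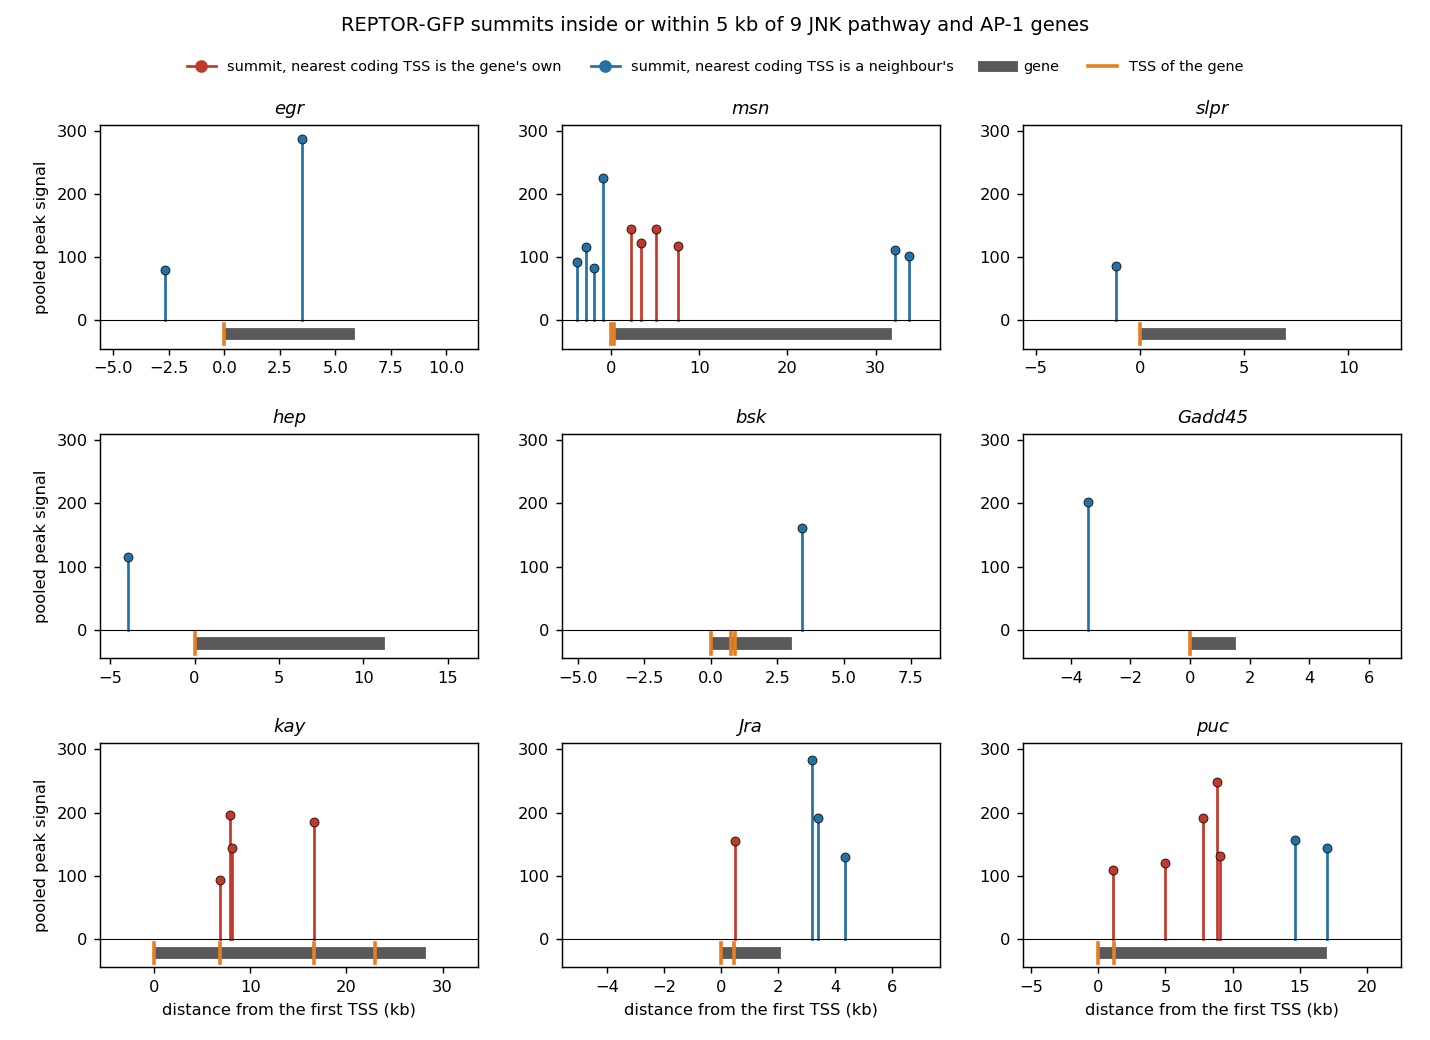
Each panel is 1 gene, drawn from its first TSS in the direction of transcription (horizontal axis, kb), and each stem is an optimal summit with its pooled peak signal (vertical axis, signal of the authors' caller). Red stems have the gene's own TSS as the nearest protein-coding TSS and blue stems a neighbour's, the grey bar is the gene and the orange ticks are its TSSs. The 4 kay stems are all red, puc has 5 red stems and 2 blue, and egr, slpr, hep, bsk and Gadd45 have blue stems alone.

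The position of the nearest protein-coding TSS divided the genes. In 14 of the 31 summits it belonged to the gene itself, and in 17 to a neighbour. The 14 summits were at msn, kay, Jra and puc, and the other 5 genes (egr, slpr, hep, bsk and Gadd45) had none. The 14 own summits had a median signal of 144.75 (92.41 to 249.1) and the 17 neighbouring ones 130.1 (80.54 to 288.2), so that the ranges overlapped over most of their length. Of the 17, 14 lay within 1000 bp of a TSS, and of the 14, 8 did. Over all 31 summits, 71.0% were within 1000 bp of some TSS, against 71.1% of all optimal summits. Of the 9 summits farther away, 8 were in introns (88.9%) and none lay between genes, against 71.9% and 23.2% of all distal summits. Only summits inside or within 5 kb of the 9 genes were counted, so summits far from genes could not enter. The contrast with all distal summits is thus partly set by that rule.

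Both replicates ranked most of the 31 summits alike. The log2 ratio of the replicate 1 to the replicate 3 signal had a median of -0.07 and a standard deviation of 0.34 over the 31 summits, against -0.04 and 0.48 over the 5304 optimal peaks with a call in both. A single summit, at a kay start, was past 2-fold (3.23%), against 4.54% of all. All replicate values here take the strongest overlapping call of each replicate. With the overlapping call of nearest summit, the summit at 10099874 beside Jra was also past 2-fold. It then had 28.97 in replicate 1 (rank 8220) and 148.7 in replicate 3 (rank 541). Of the 31, 28 (90.3%) were among the first 5321 calls of both replicates, against 78.6% of all optimal peaks. The 3 others were at kay and at msn, outside in replicate 1, and at egr, outside in replicate 3. In 3 pairs of neighbouring summits, at kay, Jra and puc, both summits overlapped the same replicate calls, so the replicate values of a pair are not separate measurements.

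**Figure D2:**
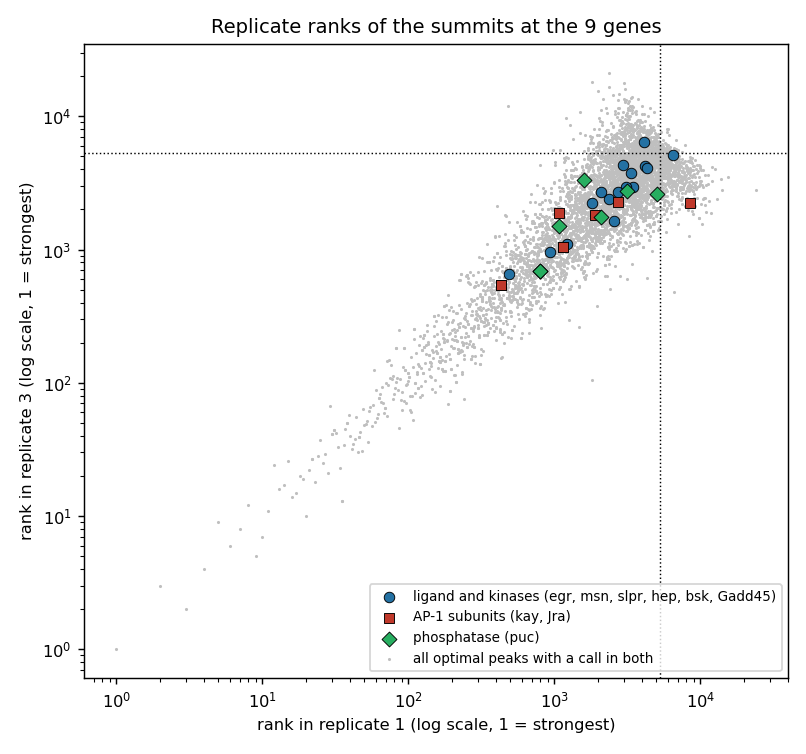
Rank of each member summit in replicate 1 (horizontal axis, log scale) and in replicate 3 (vertical axis, log scale), where 1 is the strongest call. Colours give the role of the gene, with all optimal peaks that have a call in both replicates in grey. Gadd45, neither a ligand nor a kinase gene, is drawn in the colour of the ligand and kinase genes. Dotted lines mark rank 5321: 28 of 31 member summits lie inside both, and the kay summit with rank 8495 in replicate 1 and 2219 in replicate 3 lies farthest from the diagonal.

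The ligand gene egr (FBgn0033483, chromosome arm 2R, 10078366 to 10084210, plus strand) encodes Eiger, the fly tumour necrosis factor. It held the strongest of the 31 summits, in its own intron at 10081853 (peak 10081740 to 10081971), 3487 bp downstream of its TSS. That summit had a pooled signal of 288.2 (rank 541), with 150.1 in replicate 1 (rank 488) and 136.8 in replicate 3 (rank 652). The nearest TSS of any kind, 469 bp away, was that of snoRNA:Or-CD13, a small nucleolar RNA gene, and the nearest protein-coding one, 3316 bp away, was that of CG2269. The second egr summit, at 10075672, was 2694 bp upstream of egr and 27 bp from the TSS of CG1371. It was the weakest of the 31, with a pooled signal of 80.54 (rank 5088), 47.23 in replicate 1 (rank 4140) and 37.41 in replicate 3 (rank 6360). The egr promoter itself had no optimal summit. The best call of the pooled list there lay 730 bp upstream of the TSS, with a signal of 62.24 and rank 7152, below the 5321 of the optimal list.

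The gene msn (FBgn0010909, 3L, 2554847 to 2586540, minus strand) encodes Misshapen, the MAP4 kinase at the top of the relay. With 10 summits it had the most of the 9 genes, and 99.8% of all protein-coding genes had fewer. Only 22 genes had 10 or more. The order of the 9 genes depended on the assignment and the list: with each summit given only to the gene with the nearest TSS msn had 4, puc 5 and kay 4, and with the stronger 50% of the peaks msn had 3, puc 5 and Jra 4. At 31.7 kb, msn was also long (4.50% of genes were longer), and per 10 kb of gene and flanks it had 2.40 summits, more than 93.2% of genes. Of its 10 summits, 4 lay in its own introns, 4 upstream and 2 downstream.

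The 4 intronic summits of msn, at 2584240, 2583171, 2581415 and 2578889, were 2014, 3083, 4839 and 7365 bp downstream of an msn TSS. Their pooled signals were 145.5, 123.3, 145.0 and 117.9, with ranks from 2050 to 2892. In replicate 1 the signals were 67.96, 62.53, 64.57 and 57.56, and in replicate 3 they were 69.09, 64.33, 85.35 and 61.42. All 4 pooled signals were close to the series median of 124.5. They were the only intronic run among the kinase genes: hep, slpr and bsk had no summit inside the gene.

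The strongest msn summit, at 2587460 (peak 2587354 to 2587537), was also its only one within 1000 bp of an msn TSS, at 920 bp upstream. It stood 4 bp from the TSS of RpL8, which encodes a protein of the large ribosomal subunit. Its pooled signal was 225.4 (rank 898), with 111.7 in replicate 1 (rank 928) and 112.1 in replicate 3 (rank 961). At the other msn start, at 2586254, a pooled call 14 bp upstream of the TSS had a signal of 76.26 and rank 5470, just below the optimal list. The remaining 5 msn summits were at neighbours. One lay in the coding sequence of RpL8 (pooled signal 82.44, rank 4938, with rank 6492 in replicate 1 and 5095 in replicate 3). The pair at dos, an adaptor gene of receptor tyrosine kinase signalling, had pooled signals of 116.4 and 93.26 at 63 and 1016 bp from the dos TSS. The pair at Spn had 111.9 and 102.6, at 42 and 1562 bp from the Spn TSS.

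The 5 other genes with exactly 10 summits within 5 kb, in the order of how close their highest pooled signal was to that of msn (225.4), were aop (204.8), lola (269.6), CG32264 (363.2), CG14434 (368.7) and neb (435.6). On the log2 scale their gaps to msn were 0.14, 0.26, 0.69, 0.71 and 0.95. The likeness is that of a number and a signal over 1 peak list. The gene aop, which is also in the list of further JNK cascade regulators below, encodes Yan, an ETS-family repressor, and lola a zinc finger factor.

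The MAP3 kinase gene slpr (FBgn0030018, X, 8170229 to 8177185, minus strand) and the MAP2 kinase gene hep (FBgn0010303, X, 13079205 to 13090434, minus strand) encode Slipper and Hemipterous, the middle steps of the relay. Each had 1 summit within 5 kb, the median number for a protein-coding gene. The slpr summit, at 8178329, was 1144 bp upstream of slpr and 220 bp from the TSS of sdt, an epithelial polarity gene. It had a pooled signal of 86.38 (rank 4635), with 46.80 in replicate 1 (rank 4201) and 48.85 in replicate 3 (rank 4232). The hep summit, at 13094360, was 3926 bp upstream of hep in the 5′ UTR of CG2200, 61 bp from its TSS. Its pooled signal was 115.5 (rank 2989), with 53.80 in replicate 1 (rank 3438) and 61.26 in replicate 3 (rank 2949). Both were thus weaker than the median of the series, and both were nearer to a neighbour. Calls at the genes' own starts were present lower in the pooled list, 44 bp downstream of the slpr TSS with a signal of 70.33 (rank 6102) and 617 bp upstream of the hep TSS with 50.10 (rank 9386).

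The JNK gene bsk (FBgn0000229, 2L, 10247502 to 10250501, minus strand) encodes Basket. Its only summit, at 10247059, lay 443 bp past the end of the gene and 19 bp from the TSS of chico, the gene for the insulin receptor substrate, in the chico 5′ UTR. It had a pooled signal of 160.4 (rank 1689), with 79.24 in replicate 1 (rank 1800) and 72.01 in replicate 3 (rank 2223). None of the 3 bsk TSSs had an optimal summit within 1000 bp. The best pooled call there was 95 bp upstream of the TSS at 10249742, with a signal of 69.92 (rank 6148). The replicates placed that call differently, at rank 10439 in replicate 1 and 3996 in replicate 3.

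Gadd45 (FBgn0033153, 2R, 7249161 to 7250655, plus strand) encodes a small stress-induced protein that in mammals binds a MAP3 kinase upstream of JNK. The summit counted for it, at 7245755, was 3406 bp upstream of its TSS and 21 bp from that of Adk3, an adenylate kinase gene, in the Adk3 5′ UTR. It had a pooled signal of 202.3 (rank 1106), with 96.55 in replicate 1 (rank 1229) and 103.7 in replicate 3 (rank 1100). At the Gadd45 start, the best pooled call lay 47 bp downstream of the TSS with a signal of 46.79 and rank 10219. It was the lowest in rank among the best own-promoter calls of egr, slpr, hep, bsk and Gadd45.

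The Fos gene kay (FBgn0001297, 3R, 29765995 to 29794113, plus strand) has 4 TSSs, and 2 of them had a summit. Its 4 summits all lay inside the gene, and 5.87% of protein-coding genes had 4 or more. At 28.1 kb it was among the longer genes, so that per 10 kb of gene and flanks the 4 summits came to 1.05, with 74.2% of genes lower. The summit at 29782632 (peak 29782414 to 29782849) stood 23 bp downstream of the start of kay-RB, in the 5′ UTR. It had a pooled signal of 185.4 (rank 1298), with 103.8 in replicate 1 (rank 1079) and 79.75 in replicate 3 (rank 1865). The summit at 29772894 (peak 29772676 to 29773111) stood 2 bp from the start shared by kay-RA and kay-RG and was weaker, at 92.41 (rank 4198).

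With the strongest overlapping calls, the kay-RA start was the place where the replicates differed most. The signal was 28.16 in replicate 1 (rank 8495) and 72.06 in replicate 3 (rank 2219), a log2 ratio of -1.36. It was the single summit of the 31 past 2-fold under this rule, and its replicate 1 call had its own summit 159 bp away. The overlapping replicate 1 call of nearest summit was lower, at 18.48 (rank 14672). The strongest kay summit, in the intron at 29773938, was 1046 bp downstream of that start and so just outside the promoter window. There the pooled signal was 195.4 (rank 1178), with 99.80 in replicate 1 (rank 1155) and 106.4 in replicate 3 (rank 1054). A further intronic summit, at 29774140 with a pooled signal of 144.5 (rank 2077), overlapped the same replicate calls and was 911 bp from the TSS of lncRNA:CR46110. The starts of kay-RD and kay-RF had no optimal summit within 1000 bp, and their best pooled calls ranked 24814 and 13791.

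The Jun gene Jra (FBgn0001291, 2R, 10096480 to 10098556, plus strand) had its own summit at 10096983 (peak 10096765 to 10097200), in the 5′ UTR. It stood 55 bp downstream of the start of Jra-RA and Jra-RC and 503 bp downstream of that of Jra-RB. Its pooled signal was 155.3 (rank 1818), with 76.87 in replicate 1 (rank 1897) and 80.78 in replicate 3 (rank 1810). The replicate 1 call had its own summit 107 bp away. The overlapping replicate 1 call of nearest summit had a signal of 49.79 (rank 3843). Among the 5 own-promoter summits of the 9 genes, the Jra summit had the median pooled signal. The other 3 summits counted for Jra lay downstream, at 14-3-3zeta, which encodes a phosphoprotein-binding adaptor. The strongest of these stood 19 bp from the 14-3-3zeta TSS, with a pooled signal of 282.8 (rank 565), 157.6 in replicate 1 (rank 429) and 148.7 in replicate 3 (rank 541). The others, in the 14-3-3zeta intron, had pooled signals of 191.5 and 130.1, and the first of them overlapped the same replicate calls as the strongest. Since Jra is only 2.08 kb long, its 4 summits came to 3.31 per 10 kb, more than in 98.3% of genes, and 3 of the 4 were nearer to the neighbour.

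The phosphatase gene puc (FBgn0243512, 3R, 8105332 to 8122294, plus strand) encodes Puckered, a dual-specificity phosphatase of JNK. It had 7 summits, 6 of them inside the gene, and 99.5% of protein-coding genes had fewer (76 genes had 7 or more). Per 10 kb it had 2.60 summits, with 95.1% of genes lower. The start of puc-RB had the weakest of the 7, at 8106388, 100 bp upstream of the TSS. It had a pooled signal of 109.7 (rank 3239), with 41.31 in replicate 1 (rank 5022) and 65.25 in replicate 3 (rank 2633). At the start of puc-RA, 39 bp downstream of the TSS, the pooled call had a signal of 76.66 and rank 5432, so it fell just below the optimal list.

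The strength at puc lay within the gene rather than at its starts. The strongest summit, at 8114162 (peak 8113986 to 8114197), was 7674 bp downstream of the puc-RB start and 159 bp from the TSS of lncRNA:CR44331, a long non-coding RNA gene within puc. Its pooled signal was 249.1 (rank 746), with 119.5 in replicate 1 (rank 803) and 134.5 in replicate 3 (rank 685). A neighbour at 8114361 (131.5, rank 2429) overlapped the same replicate calls. The summit at 8113116, in an exon of the same long non-coding RNA, had a pooled signal of 190.9 (rank 1230), with 104.2 in replicate 1 (rank 1073) and 89.05 in replicate 3 (rank 1493). Together these formed a cluster around the non-coding gene that ranked above the puc-RB start in the pooled list and in both replicates.

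Of the other puc summits, the one at 8110290, 3802 bp downstream of the puc-RB start, had a pooled signal of 120.4 (rank 2792), with 57.05 in replicate 1 and 63.80 in replicate 3. The distal intronic summit at 8119998 (peak 8119780 to 8120215), 13510 bp downstream of the puc-RB start, had 156.8 (rank 1774), with 73.01 in replicate 1 (rank 2072) and 82.21 in replicate 3 (rank 1745). Its nearest TSS was that of CG7878, 2727 bp away. The last, at 8122375, lay 81 bp past the end of puc and 350 bp from the CG7878 TSS. It had a pooled signal of 143.5 (rank 2102), with 83.87 in replicate 1 (rank 1600) and 57.20 in replicate 3 (rank 3317). The replicates thus leaned in opposite directions at the ends of the gene, towards replicate 3 at the puc-RB start (log2 ratio -0.66) and towards replicate 1 past the gene end (0.55).

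**Figure D3:**
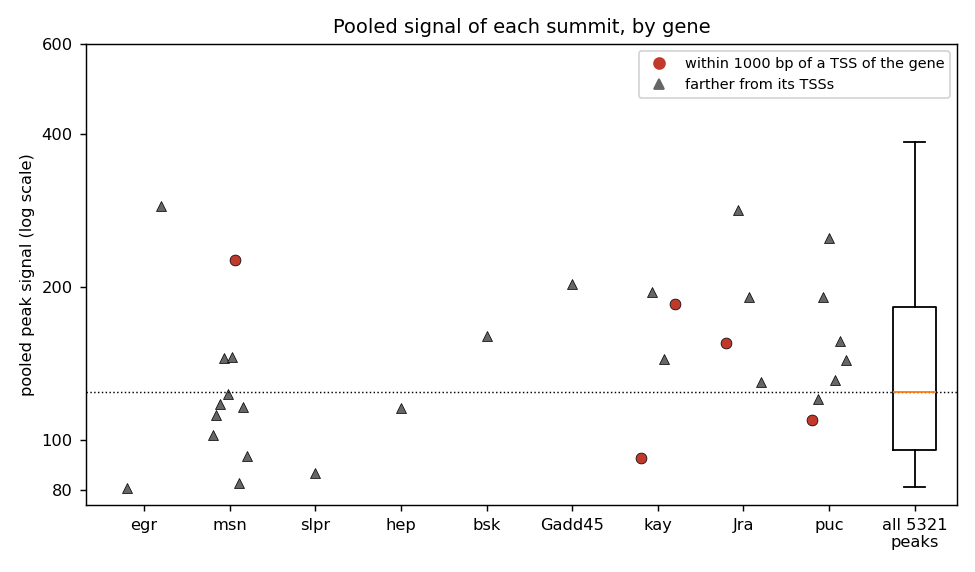
Pooled peak signal (vertical axis, log scale) of every optimal summit inside or within 5 kb of each gene, in order along the chromosome within a gene, with circles for summits within 1000 bp of a TSS of the gene and triangles for the others. The box at the right gives the quartiles of all 5321 peaks with whiskers from the 5th to the 95th percentile, and the dotted line their median of 124.5. The 5 circles run from 92.41 at kay to 225.4 at msn, and the highest triangle, 288.2, is the intronic summit of egr.

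The window edges fell as follows. At 1000 bp from a TSS, the last summit inside was that of msn at 920 bp, and the first outside were those of kay at 1046 bp and slpr at 1144 bp. At 5 kb from a gene, the farthest inside was that of hep at 3926 bp. The first outside were at 5320 bp from Jra (signal 86.64) and 5336 bp from bsk (88.57), followed by one at 8937 bp from kay (252.5).

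Matches to 9 short motifs were counted within 50 bp of each summit on both strands. The AP-1 site TGANTCA was found at 2 of the 31 summits (6.45%), against 2.54% of all optimal summits. Both were at puc, at its puc-RB start 17 bp from the summit and in its distal intron 4 bp from the summit, as capitalised in the sequences printed above. The GAGA-factor letters GAGAGAG were found at 5 of 31 (16.1%), against 2.01% of all. They were at 3 puc summits, at the kay-RA start and at 1 summit in the 14-3-3zeta intron beside Jra, and the 2 puc summits with an AP-1 match also had one. Within 100 bp the GAGA count stayed at 5 (16.1%), against 4.96% of all, and the AP-1 count was 4 (12.9%), against 4.49%. With so few matches, 1 summit more or less moves a share by 3.23 percentage points.

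Of the other 7 motifs, the E-box (CACGTG) and the letters GATAAG, read by GATA-family factors, were each found at 1 summit counted for msn (3.23%), against 1.32% and 5.58% of all. The E-box match was at a summit in an msn intron, and the GATAAG match at the summit in the Spn intron. No match within 50 bp was found for the cAMP response element (TGACGTCA, 0.226% of all), its half-site (TGACGT, 2.31%), the DRE (TATCGATA, 3.55%), Motif 1 (GGTCACACT, 1.64%) or the FOXO site (GTAAACA, 3.76%). Within 100 bp, the DRE was found at 2 summits, at Jra and hep (6.45%, against 6.30% of all), and the half-site at kay and the FOXO site at Gadd45 at 1 each (3.23%, against 4.83% and 6.82%). The summit counted for hep was the one near the CG2200 TSS, and that for Gadd45 the one near the Adk3 TSS. The half-site letters are contained in the full element, so the full element is counted in both. A match to any of the 9 was found at 7 of 31 summits (22.6%), against 20.2% of all. The GC content within 50 bp of the summit had a median of 39.6% at the 31 summits and 38.6% at all.

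The AP-1 letters were counted over each whole gene with 5 kb on each side, to see how common they were there apart from the summits. At puc there were 20 matches, or 7.42 per 10 kb, against 1.88 for the median protein-coding gene and 2.09 over the chromosome arms. Of all protein-coding genes, 99.7% had a lower density. Of the 20 at puc, 3 lay within 100 bp of an optimal summit. Gadd45 followed with 6 matches (5.22 per 10 kb, 97.0% of genes lower), 1 of them within 100 bp of the summit at Adk3. Then came msn with 16 (3.84) and kay with 13 (3.41), none of them within 100 bp of a summit. The other 5 genes had 1 to 5 matches, from 0.769 per 10 kb at bsk to 2.48 at Jra.

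GAGA letters, with overlapping matches each counted, were densest at Jra (12 matches, 9.94 per 10 kb), slpr (15, 8.85), kay (31, 8.13) and puc (16, 5.93), against 0.906 for the median gene and 2.40 over the arms. Of these, 1 at Jra, 0 at slpr, 1 at kay and 3 at puc lay within 100 bp of an optimal summit. The letters were thus frequent at slpr without a match at its summit.

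**Figure D4:**
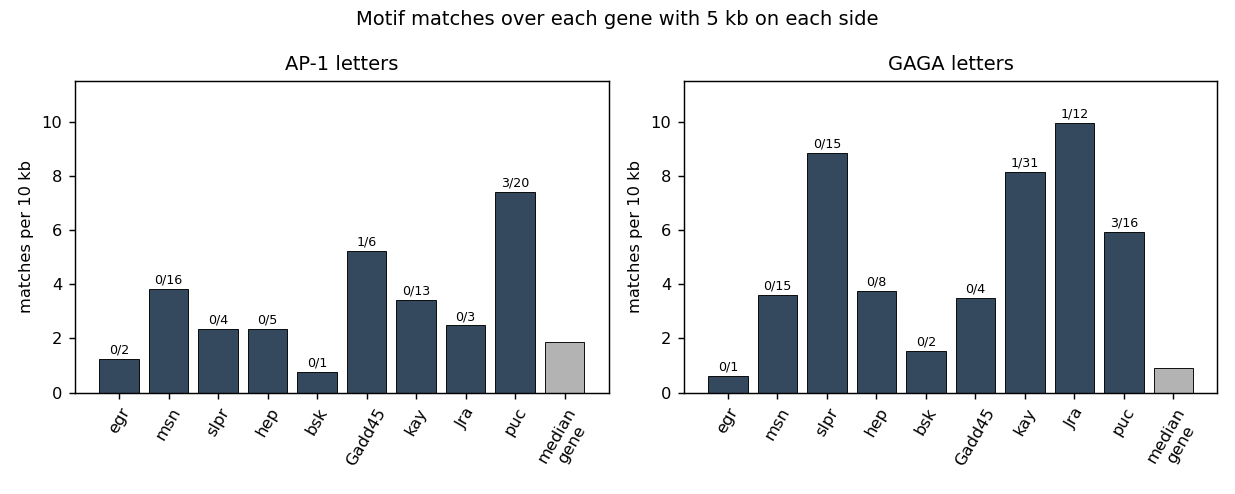
Matches per 10 kb (vertical axis) to the AP-1 letters (left) and the GAGA letters (right) over each gene with 5 kb on each side, with the median over protein-coding genes in grey. The numbers above the bars give the matches within 100 bp of an optimal summit and all matches. For AP-1, puc stands highest at 7.42 with 3 of 20 matches near a summit, and for GAGA, Jra stands highest at 9.94 with 1 of 12.

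Around the 9 genes, 3 lists of 57 genes, chosen by name, gave further genes of the pathway, of its targets and of related cascades. Beside the 4 of 9 genes with a promoter summit (44.4%), 15 of 23 further JNK cascade regulators had one (65.2%). So did 11 of 22 dorsal closure and JNK target genes, 5 of 12 genes of the p38 and ERK cascades (41.7%) and 30.3% of all protein-coding genes. The shares were not tested against each other. Within 5 kb, the counts were 9 of 9 for the 9 genes, 19 of 23 (82.6%), 14 of 22 (63.6%) and 11 of 12 (91.7%) for the lists, and 55.3% for all genes.

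Among the regulators, the strongest promoter summit was that of Mkk4, the second MAP2 kinase of JNK, with a pooled signal of 844.6 (rank 50, with 44 in replicate 1 and 55 in replicate 3). It was followed by Mtl, a Rac-like GTPase gene (528.0, rank 130), POSH, a scaffold of the relay (515.0, rank 139), and Src64B, a Src-family kinase gene (246.6, rank 757). The first 3 were nearest to another gene's TSS, those of SLIRP2, CG5611 and Ns2. All 4 were above 225.4, the highest own-promoter signal of the 9 genes, which was that of the msn summit 4 bp from the RpL8 TSS. The median went the other way. Over genes with a promoter summit, the strongest one had a median signal of 134.4 for the 15 regulators. For the 4 of the 9 genes it was 170.4, with the msn summit at RpL8 among them. No promoter summit was found for grnd, Traf4, Rac1, Rac2, Cdc42, Src42A, Shark and peb.

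Among the targets, Atf3, a bZIP factor gene, had 941.1 (rank 36, with 45 in replicate 1 and 30 in replicate 3) and cbt, a zinc finger factor gene needed for dorsal closure, 618.6 (rank 91). They were followed by jar, a myosin gene (276.9, rank 586), and hid, a cell death gene (175.9, rank 1442). No promoter summit was found for dpp, pnt, scaf, cher, Mmp2, Ilp8, upd1, upd2, upd3, rpr and Ets21C. Of the p38 and ERK genes, Raf (364.2, rank 300), Mef2 (162.1, rank 1645), Mekk1 (141.2, rank 2167) and p38a (134.7, rank 2328) led, and p38c, lic, Atf-2, rl, Dsor1, ksr and Mkp3 had none.

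**Figure D5:**
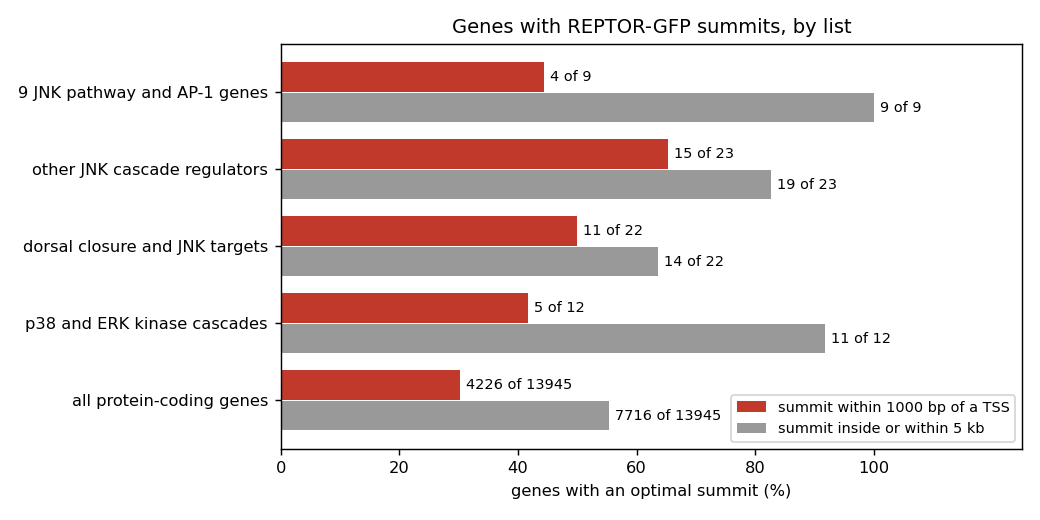
Percent of genes (horizontal axis) with an optimal summit within 1000 bp of a TSS (red) and inside or within 5 kb of the gene (grey), for the 9 genes, the 3 lists and all protein-coding genes, with the counts beside the bars. The 9 genes reach 44.4% at promoters and 9 of 9 within 5 kb, against 30.3% and 55.3% of all genes at the bottom. The grey shares depend on gene length, since a longer gene has a wider window.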

How the data were processed

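Peak lists of 2 ChIP-seq replicates were used on the dm6 build. Per the notes deposited with the files, calls were made by the authors on each replicate and on both together against a control file, background calls included, and the optimal list holds the calls kept after filtering on the irreproducible discovery rate (IDR), a measure of how alike replicates rank them. Which aligner and caller produced them is not given in the sources used here. Signal, as deposited, is the caller's value per call, used to rank calls within a list. All 5321 optimal peaks were the strongest of the 30000 pooled calls, and 5304 of them overlapped a call in both replicates. Each replicate list also held 30000. Read depth is not known from the files, so precision is given as counts of peaks and as the 2 replicate values. The lists on the dm3 build were not used.

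Summits (peak start plus the deposited offset) were placed on Ensembl 115 gene models and RefSeq Release 6 sequence with Python 3.11.15, pandas 2.3.3 and numpy 2.4.6. Coordinates are 1-based. A summit within 1000 bp of any TSS of a gene counts for it, so genes can share one. Replicate values are those of the strongest call overlapping by at least 1 bp. Counting was tested on simulated data.

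With 1 group and members chosen by name, no test was made. The members, lists and motifs were chosen with earlier results of these data known. Named are all 9 genes with every summit within 5 kb, the 4 genes per list with the strongest promoter summit, list genes with none, and, for the member with most summits, the 5 genes with the same number and closest highest signal. Alternatives changed the windows, the list, the replicates, the assignment, the overlap, the scaling and the set of summits.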

Additional observations from a re-analysis of the deposited data

How the results depend on the processing

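No test was run, so each alternative gives a count or a value. With the stronger 50% of the optimal peaks, summits within 5 kb numbered 18 in place of 31. Promoter summits were then found at 3 of the 9 genes in place of 4 and at 17.5% of protein-coding genes in place of 30.3%. They were found at 5 in place of 11 of the dorsal closure and target genes. With each summit given only to the gene with the nearest TSS, 14 summits were left, and msn lost its promoter summit to RpL8. That left 3 of the 9 genes with a promoter summit, against 21.7% of all protein-coding genes. With all pooled calls, a promoter call was found at all 9 genes in place of 4, at 23 of 23 regulators in place of 15, at 21 of 22 targets in place of 11, at 11 of 12 p38 and ERK genes in place of 5, and at 62.1% of all genes. The median signal of 143.5 was 155.3 over own-promoter summits alone and 155.3 without msn. Within 100 bp, 12 summits in place of 7 held a motif, against 36.8% of all summits. AP-1 matches were at 4 (12.9%, against 4.49% of all), 3 at puc and 1 at the Adk3 summit counted for Gadd45. A window of 500 bp removed msn from the 4 genes with a promoter summit (27.1% of all genes had one) and one of 2000 bp added slpr (35.3% of all genes). Within 2 kb of the genes there were 24 summits, with none at hep and Gadd45, and within 10 kb there were 34. The stronger 50% of the peaks left none within 5 kb of hep and slpr. The share of all genes with a summit at these distances was not counted for these alternatives.

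Without replicate 1 or without replicate 3, taking as many of the strongest calls of the remaining one, summits within 5 kb numbered 34 to 35, members with a promoter summit 4 to 5 (bsk was added from replicate 3 alone), regulators 15 to 16, targets 9 to 10, p38 and ERK genes 6 in both, and all genes 29.6% to 30.4%. The overlap rule, the scaling and the choice of the overlapping call with the nearest summit, which was added after seeing the data, left the median log2 ratio of replicate 1 to replicate 3 between -0.09 and -0.05. With the nearest-summit call, the summit at 10099874 beside Jra was past 2-fold (28.97 in replicate 1, 148.7 in replicate 3), as was the kay-RA start. No paired analysis was possible because the series holds 1 group. With read depth unknown, a promoter without an optimal summit is one below this list's limit, not one shown to lack binding.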

Other observations

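Starts of the 9 genes without a summit in the optimal list differed in how far below it their best call lay. The best pooled calls at the own starts of bsk and slpr ranked 6148 and 6102, near the limit of 5321, and those of egr, hep and Gadd45 ranked 7152, 9386 and 10219. The 2 replicates ranked these calls at 10439 and 3996 for bsk, 5545 and 8930 for slpr, 6578 and 8146 for egr, 8951 and 24248 for hep, and 15827 and 7700 for Gadd45 (replicate 1 first). Both orders of the replicates thus occurred. No explanation was tested.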
